A study of Mus musculus with 2 samples.

Results

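Mural cells, the cells that wrap the endothelial tube of blood vessels, were taken from 2 droplet libraries of mouse midbrain by the transcripts they carry. A barcode was counted as mural when the mural genes Vtn, Rgs5, Acta2, Tagln and Myl9 together had at least 5 UMIs (unique molecular identifiers, each standing for 1 captured transcript) and at least 0.4% of its UMIs. This sum also had to exceed that of the endothelial genes Cldn5, Flt1, Ly6c1, Ly6a and Slco1a4, and that of Slc1a2, Slc1a3, Snap25, Ctss, C1qb and Mag, which mark astrocytes, neurons, microglia and oligodendrocytes. Of 1736 barcodes that passed a floor of 200 genes and a ceiling of 20% mitochondrially encoded UMIs, 96 met the rule, 42 of 882 in the control library and 54 of 854 in the library from treated mice. Mural barcodes with more Acta2 and Tagln UMIs than Vtn UMIs are called smooth muscle-like here, 10 in the control and 18 in the treated library, and the remaining 32 and 36 are called pericyte-like. The members were thus chosen by 16 genes measured in the same barcodes, so the levels of those genes, and the difference between the subclasses, are given as descriptions.

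The tissue was a punch from a 1 mm midbrain slice, labelled as the substantia nigra pars compacta, of C57BL/6 mice aged 10 weeks when injections began. On 2 days of each week, over 3 weeks, treated mice received 10 mg/kg paraquat and then 30 mg/kg maneb, and this treatment is called MNPQ in the labels. Control mice were injected with saline according to the protocol, whereas a label calls them untreated, and the protocol names 3 males a group whereas a label gives pooled sexes. Of the genes that define its dopamine neurons, Th had 1 UMI and Slc6a3 1 UMI over all kept control barcodes, and both had 0 over all kept MNPQ barcodes. Slc18a2, also checked, had 1 UMI in each library. Ddc, the remaining gene checked, had 42 UMIs in 30 control barcodes and 62 in 42 MNPQ barcodes. Each group was 1 library, so mice within a group cannot be told apart, no test between groups was possible, and every difference below is between 2 libraries.

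Pericytes lie within the basement membrane of capillaries, where they receive platelet-derived growth factor from the endothelium, help to hold the blood-brain barrier and can change capillary tone. Smooth muscle cells ring arteries and arterioles, and contract when calcium activates the kinase that phosphorylates myosin light chain. Both express Myl9, a myosin regulatory light chain, and Rgs5, a regulator of G protein signalling, while Vtn (vitronectin, a matrix protein) is high in brain pericytes and Acta2 (smooth muscle actin) and Tagln (transgelin, an actin-binding protein) are high in smooth muscle.

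Pericyte-like barcodes held 77379 UMIs in the control library (504 to 4782 a barcode, median 2523) and 103076 in the MNPQ library (518 to 8435, median 2428). Smooth muscle-like barcodes held 46083 UMIs (1178 to 6783, median 4688) and 113977 UMIs (2076 to 9987, median 6269). Across all kept barcodes the medians were 974 and 946 UMIs, so mural barcodes were deeper than most. Of the pericyte-like barcodes, 5 control and 9 MNPQ barcodes had fewer than 1000 UMIs, and these had 7.74% to 16.3% and 9.43% to 18.3% mitochondrially encoded UMIs, against 1.68% to 6.72% and 2.14% to 6.50% in the deeper ones. The libraries shared 2 barcode sequences, 0 of them mural. Scrublet, a caller of doublets, marked 9 of 882 control and 6 of 854 MNPQ barcodes, among them 1 control and 0 MNPQ mural barcodes, and these were kept in; 0 of the barcodes set apart below were among them.

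In pericyte-like barcodes the rule's genes summed to 1658 Vtn, 705 Rgs5, 90 Acta2, 22 Tagln and 253 Myl9 UMIs in the control library. The MNPQ library gave 2088 Vtn, 529 Rgs5, 10 Acta2, 14 Tagln and 284 Myl9 UMIs. In smooth muscle-like barcodes the sums were 109 Vtn, 179 Rgs5, 884 Acta2, 362 Tagln and 579 Myl9 UMIs in the control library, and 180, 422, 2034, 996 and 1300 UMIs in the MNPQ library. The threshold of 5 marker UMIs lay in a sparse region. Just inside it, with 5 to 9 marker UMIs, stood 2 barcodes in each library, and 0 barcodes in each had 3 or 4 marker UMIs with the other criteria met. The threshold of 0.4% alone kept out 8 control barcodes of 2539 to 17398 UMIs and 3 MNPQ barcodes of 8891 to 14593 UMIs. Within 10 UMIs of the split between the subclasses lay 6 control and 9 MNPQ barcodes, of which 4 and 8 had fewer than 1000 UMIs.

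The mural label was set against marker lists of other cell types. The pericyte and contractile lists hold 24 and 28 genes and each other list at most 17, so the comparison favours the mural label. In 9 of the 96, a marker list of another cell type held more UMIs than the pericyte and contractile lists together, with the genes of the rule left out of all lists. Of these, 6 carried a fibroblast profile, 1 in the control library (2779 UMIs) and 5 in the MNPQ library (603 to 8435 UMIs). They had Vtn, between 8 and 106 UMIs a barcode, and 0 UMIs of Rgs5 and of Kcnj8, a pericyte channel gene. Instead, the 5 MNPQ barcodes had 464 UMIs of Apod, 795 of Ptgds and 145 of Dcn, genes of perivascular and meningeal fibroblasts, and 18 UMIs of Pdgfra, which had 0 UMIs in all other mural barcodes. An astrocyte list led in 1 control barcode of 657 UMIs and, by 90 to 86 UMIs, in 1 MNPQ barcode of 8018 UMIs. An ependymal list led in 1 MNPQ barcode of 9987 UMIs, the deepest smooth muscle-like one. Of all mural barcodes, these made up 4.76% in the control library and 13.0% in the other, a difference of 8.20 percentage points with a counting interval of -4.62 to 20.2. They held 4.44% of control and 34.1% of MNPQ pericyte-like UMIs, and 8.76% of MNPQ smooth muscle-like UMIs. The results below are therefore given with and without them, a choice made after seeing the data, and "the 87 barcodes" are the 40 control and 47 MNPQ barcodes that remain.

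**Figure D1:**
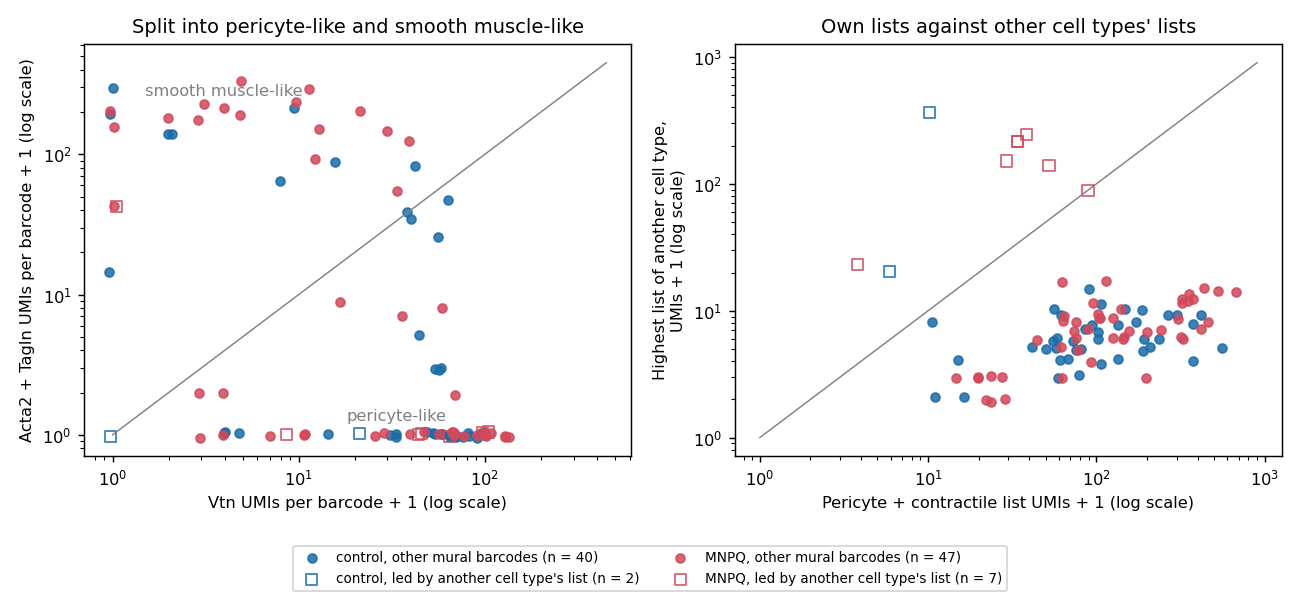
Each symbol is 1 of the 96 mural barcodes, control in blue and MNPQ in red, with a small random shift so that equal counts can be seen. The left panel plots Acta2 plus Tagln UMIs against Vtn UMIs with the line that splits the subclasses, and the right panel plots the highest list of another cell type against the pericyte and contractile lists (all axes are log scales of UMIs plus 1). The 9 open squares, 2 control and 7 MNPQ, lie above the diagonal of the right panel.

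Marker lists of other cell types were summed as well. They describe the members and support nothing, since some of their genes are in the rule and the 87 barcodes were made by leaving out those that such lists led. In all pericyte-like barcodes the 12 fibroblast markers held 0.501% of control and 0.825% of MNPQ UMIs, and among the 87 barcodes 0.0446% and 0.0397%, with Lum, Col1a1, Pdgfra, Lama1, Slc47a1 and Igf2 at 0 in both libraries. The 17 endothelial markers, 5 of them genes of the rule, held 0.146% and 0.173% in all pericyte-like barcodes and 0.137% and 0.168% among the 87, where Cdh5, Kdr, Tek and Tie1, which are not in the rule, were at 0. The 12 microglial markers held 0.0271% and 0.0213% in all and 0.0243% and 0.0221% among the 87, with Cx3cr1, P2ry12 and Tmem119 at 0 in the latter. Among the 87 barcodes, the 24 pericyte genes held 2.05% and 2.18% of UMIs in pericyte-like barcodes, and 0.575% and 0.725% in smooth muscle-like ones. The 28 contractile genes held 1.31% and 1.06% in pericyte-like barcodes, and 5.85% and 5.04% in smooth muscle-like ones.

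Mural barcodes were 4.76% of kept control barcodes (exact Clopper-Pearson 95% interval 3.45% to 6.38%) and 6.32% of MNPQ barcodes (4.79% to 8.17%). The difference of 1.56 percentage points had a counting interval of -0.604 to 3.77, so it was not larger than counting error. Without the 9 barcodes the shares were 4.54% and 5.50%, with a difference of 0.968 points (-1.10 to 3.07). Pericyte-like barcodes without them numbered 30 in each library, 3.40% and 3.51% of kept barcodes. Smooth muscle-like barcodes made up 23.8% of control and 33.3% of MNPQ mural barcodes, and that difference of 9.52 points (-8.91 to 26.4) was also within counting error. For comparison, endothelial barcodes taken by a rule of the same form were 8.05% and 7.96% of kept barcodes, 71 and 68 barcodes. These intervals cover counting error only, and not the spread between mice, dissections or libraries.

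Genes outside the rule set the mural barcodes apart from the other kept barcodes, as the choice of the barcodes made likely. With the 87 barcodes, 259 of 1658 genes (15.6%) were past 4-fold higher in both libraries and 16 (0.965%) past 4-fold lower. With all 96 the numbers were 280 (14.1%) and 22 (1.11%) of 1985 genes. Genes entered this comparison by their UMIs in the mural barcodes alone, so genes low in mural barcodes were more often left out. All counts of higher and lower genes in this comparison are thus partly fixed by that choice. The excess of higher over lower genes therefore cannot be read as a result. Des, the muscle intermediate filament desmin, had 73 UMIs in 40 control mural barcodes and 143 in 47 MNPQ barcodes, against 1 UMI in 840 and 1 in 800 other barcodes. Myh11, the smooth muscle myosin heavy chain, had 144 and 256 UMIs against 2 and 0. Higd1b, a mitochondrial protein gene used as a pericyte marker, had 289 and 360 UMIs against 9 and 3. Kcnj8 had 100 and 104 UMIs against 0 and 2. The 20 genes with the most extreme ratios also held Ndufa4l2, a mitochondrial protein gene, Pln, which encodes the calcium pump inhibitor phospholamban, Tpm2 (tropomyosin), Cd248 (endosialin) and Carmn, a smooth muscle long non-coding RNA. All 23 measured pericyte genes and all 24 measured contractile genes were higher in mural barcodes in both libraries, where 1538 of all 2534 genes were.

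The subclasses differed in contractile genes, pericyte genes and genes grouped here as vascular transporters. Ratios of smooth muscle-like over pericyte-like barcodes were taken within each library from summed UMIs scaled to 1000000 (counts per 1000000, CPM), with the 87 barcodes. Past 2-fold in both libraries were 140 of 1660 genes (8.43%) higher in smooth muscle-like barcodes and 166 (10.0%) lower. With all 96 barcodes these were 139 (6.99%) and 185 (9.31%) of 1988 genes. Across all 2536 genes of at least 20 UMIs, the median log2 ratio was -0.07 in the control library and -0.10 in the other. The share of all genes that ran the same way in both libraries is not given. The list counts below are therefore to be read by their medians.

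Of 24 measured contractile genes, 21 were higher in smooth muscle-like barcodes in both libraries, with medians of 2.48 and 2.82 on the log2 scale. Myh11 had 133 UMIs in smooth muscle-like and 11 in pericyte-like control barcodes, and 254 and 2 in the MNPQ library, with log2 ratios of 4.28 (95% counting interval 3.39 to 5.31) and 6.38 (4.51 to 9.43). Every smooth muscle-like barcode had Myh11, between 3 and 24 UMIs in the 10 control and between 5 and 32 in the 17 MNPQ barcodes, while pericyte-like barcodes had between 0 and 3. These counts were not scaled for depth, with medians of 4688 and 6127 UMIs in smooth muscle-like and 2523 and 2276 in pericyte-like barcodes. Csrp1, which encodes a cytoskeletal LIM protein, had 93 against 1 UMI and 224 against 2 UMIs, with log2 ratios of 7.22 (4.71 to 12.54) and 6.19 (4.32 to 9.25). Tpm2 had 278 against 32 and 531 against 32 UMIs (3.80 and 3.44). Myl6, the essential light chain of smooth muscle and non-muscle myosin, had 456 against 150 and 919 against 140 UMIs (2.29 and 2.10). Pln had 73 against 4 UMIs in control and 136 against 0 in MNPQ barcodes, where a floor of 3 counts makes the log2 ratio at least 4.89. Cnn1, the smooth muscle calponin, had 16 and 20 UMIs in smooth muscle-like and 0 in pericyte-like barcodes of each library. Cald1 (caldesmon) did not follow, with log2 ratios of -0.18 (-0.46 to 0.11) and -0.47 (-0.74 to -0.20), and Vcl (vinculin) and Ppp1r14a, an inhibitor of myosin phosphatase, were higher in the control library only, by 0.56 (-0.77 to 1.86) and 0.74 (0.13 to 1.36).

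Contractile genes are known targets of serum response factor, which binds the CArG box, 6 bases of A or T between CC and GG. RefSeq promoter windows on GRCm38.p6, from 250 bases before to 50 after each start, matched 27 of the 31 genes of the contractile list and Acta2, Tagln and Myl9. The box stood in 4 of their 32 windows (12.5%), those of Filip1l, Myl6, Myl9 and Vcl, and in 535 of all 32851 windows (1.63%). In the 31 windows of 20 of 26 pericyte genes, Vtn and Rgs5 included, it stood in 0. The motif is its own reverse complement, so both strands were searched at once, and its presence is a description of the sequence. The 250 bases before the start are shown for 3 of these genes, with the box in capitals, because they place the motif beside the values of genes that were higher in smooth muscle-like barcodes. The Myl9 stretch is chr2:156775214-156775463 on the plus strand, that of Myl6 is chr10:128493010-128493259 on the minus strand, and that of Filip1l, a filamin-interacting protein gene, is chr16:57548992-57549241 on the plus strand.
Myl9: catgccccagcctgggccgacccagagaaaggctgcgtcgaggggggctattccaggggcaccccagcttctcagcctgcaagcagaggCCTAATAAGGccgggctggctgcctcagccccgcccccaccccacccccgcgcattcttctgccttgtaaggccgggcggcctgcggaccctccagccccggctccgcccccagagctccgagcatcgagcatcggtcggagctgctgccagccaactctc
Myl6: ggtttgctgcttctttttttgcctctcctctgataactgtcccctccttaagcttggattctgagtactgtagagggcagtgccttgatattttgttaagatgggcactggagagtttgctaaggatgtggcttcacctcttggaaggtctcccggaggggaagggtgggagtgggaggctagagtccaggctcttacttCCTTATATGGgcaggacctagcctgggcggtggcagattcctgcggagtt
Filip1l: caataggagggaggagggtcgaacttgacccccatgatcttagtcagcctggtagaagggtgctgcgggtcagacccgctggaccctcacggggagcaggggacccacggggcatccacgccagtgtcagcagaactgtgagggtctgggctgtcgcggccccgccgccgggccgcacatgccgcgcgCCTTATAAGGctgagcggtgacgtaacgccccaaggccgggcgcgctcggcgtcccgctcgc
In Myl9 the box began 161 bases before the start, in Filip1l 62 and in Myl6 50. The Filip1l start used here lies inside the annotated gene (57353093 to 57573126). UMIs were counted per gene and cannot be assigned to that start. Filip1l had 48 against 35 UMIs in the control library and 83 against 15 in the MNPQ library, with log2 ratios of 1.14 (0.48 to 1.81) and 1.85 (1.05 to 2.76). Of the 4 genes with a match, Vcl, given above, was not higher in smooth muscle-like barcodes of both libraries.

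Other genes high in smooth muscle-like barcodes were not on the contractile list. Palld, which encodes the actin scaffold palladin, had 27 against 1 UMI in control and 73 against 1 in MNPQ barcodes (log2 5.44 and 5.58). Pde3a, a phosphodiesterase of cyclic nucleotides, had 30 against 3 and 48 against 1 UMIs (log2 intervals of 2.32 to 6.36 and 2.42 to 10.30). Net1, an activator of RhoA, had 14 against 1 and 23 against 1 UMIs (4.49 and 3.91). Gsn, which encodes the actin-severing protein gelsolin, had 33 against 4 and 68 against 2 UMIs (3.73 and 4.47). Atp1b1, a subunit of the sodium pump that is also on the neuron list, had 28 against 3 and 90 against 2 UMIs (3.90 and 4.88). Cytosolic ribosomal protein genes were also higher, 69 of 78 in both libraries, with medians of 0.57 and 0.51.

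Pericyte genes ran the other way, with 19 of 23 lower in smooth muscle-like barcodes in both libraries and medians of -1.98 and -1.75. Among them was Kcnj8 (ENSMUSG00000030247, chromosome 6, 142564837 to 142571614, minus strand), the pore of the ATP-sensitive potassium channel of mural cells. Its 100 control and 104 MNPQ UMIs were all in pericyte-like barcodes. In 46083 control and 103990 MNPQ smooth muscle-like UMIs it had 0, which allows up to 65.1 and 28.8 CPM, against 1352 and 1530 CPM in pericyte-like barcodes. In the control library 24 of 30 pericyte-like barcodes (80.0%) had Kcnj8, and in the MNPQ library 21 of 30 (70.0%). It was in 0 of 71 and 0 of 68 endothelial barcodes, which allows shares of barcodes with a UMI, not of cells expressing the gene, up to 4.23% and 4.41%. Median depths were 2523 and 2276 UMIs in the pericyte-like, and 2880 and 3454 UMIs in the endothelial barcodes. Thinned to 500 UMIs each, 33.3% and 43.3% of pericyte-like barcodes had it. Abcc9 (ENSMUSG00000030249, chromosome 6, 142587862 to 142702315, minus strand), which encodes the regulatory subunit of that channel and lies next to Kcnj8, had 34 and 33 UMIs in pericyte-like and 1 and 0 UMIs in smooth muscle-like barcodes.

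Kcnj8 was also read along the contractile level of the barcodes, in steps of Acta2 plus Tagln UMIs. Barcodes with 0 Acta2 and Tagln UMIs had 82 control and 99 MNPQ UMIs of Kcnj8, and barcodes with 1 to 9 had 18 and 5. Barcodes with 10 to 99, among them 3 pericyte-like control barcodes, had 0 and 0, and those with 100 or more had 0 and 0. Higd1b did not stop in this way, with 154, 26, 101 and 8 UMIs in these 4 steps of the control library and 196, 21, 13 and 130 UMIs in those of the MNPQ library. The steps differ in their number of barcodes, 23, 4, 8 and 5 in the control and 24, 6, 3 and 14 in the MNPQ library.

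Other pericyte genes were low but present in smooth muscle-like barcodes. Pdgfrb, the receptor of platelet-derived growth factor B, had 117 pericyte-like and 10 smooth muscle-like UMIs in the control library and 88 and 54 in the MNPQ library, with log2 ratios of -2.87 (-3.96 to -1.94) and -1.32 (-1.83 to -0.81). Higd1b had ratios of -1.61 and -1.22, and Ndufa4l2 of -1.81 and -1.58. Atp13a5, a P-type ATPase gene, had 65 against 1 UMI in control and 69 against 3 in MNPQ barcodes (-5.34 and -5.14). Art3 (-3.21 and -4.72), the interferon-induced Ifitm1 (-3.76 and -5.46) and Pth1r, the parathyroid hormone receptor (-4.13 and -4.86), were lower as well. Ebf1, a transcription factor, did not differ beyond counting error, at 0.22 (-0.47 to 0.88) and 0.01 (-0.50 to 0.53). Ptn, which encodes the growth factor pleiotrophin and was on no list, led the low end, with 576 against 6 and 501 against 10 UMIs (-5.90 and -6.26).

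Genes grouped here as vascular transporters, some of which encode enzymes, leaned the same way. Of 14 measured, 12 were lower in smooth muscle-like barcodes in both libraries, with medians of -2.05 and -2.27. The list shares 3 genes, Abcc9, Atp13a5 and Slc38a11, with the pericyte list. Car4, a carbonic anhydrase, had 99 against 14 and 146 against 39 UMIs (-2.14 and -2.52), and Slc6a20a, a transporter of proline, had 47 against 5 and 37 against 5 (-2.55 and -3.50). Aoc3, an amine oxidase of vascular smooth muscle, was higher in both, with 1 pericyte-like and 7 smooth muscle-like UMIs in control and 0 and 29 in MNPQ barcodes.

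Receptors and channels were mixed. P2ry14, a receptor of UDP-sugars, had 96 pericyte-like against 5 smooth muscle-like UMIs in control and 81 against 14 in MNPQ barcodes (-3.58 and -3.15), and Tbxa2r, the thromboxane receptor, 28 against 0 and 32 against 8. Rgs4, another regulator of G protein signalling, lay at -0.35 (-0.91 to 0.19) and 0.53 (0.11 to 0.96). Gucy1b1, a subunit of the nitric oxide receptor guanylate cyclase, lay at -0.87 (-1.57 to -0.21) and -0.44 (-1.04 to 0.17). Atp2a2, the sarcoplasmic calcium pump on which phospholamban acts, lay at 1.68 (0.28 to 3.23) and 5.32 (2.79 to 10.64). Notch3, a Notch receptor of mural cells, did not differ beyond counting error, at -0.37 (-1.45 to 0.63) and 0.36 (-0.30 to 1.05). Basement membrane and matrix genes leaned to the pericyte-like barcodes, 11 of 15 in both libraries (medians -0.73 and -0.52), among them the matricellular Sparc at -0.91 and -1.19. Timp3, an inhibitor of matrix metalloproteinases, and Sparcl1 leaned the other way, at 2.77 and 1.59 and at 1.20 and 1.18.

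MNPQ was then set against control within each subclass, as a ratio of summed CPM. In pericyte-like barcodes 69 of 1000 genes (6.90%) were past 2-fold higher in the MNPQ library and 45 (4.50%) past 2-fold lower. Without the 9 barcodes these were 26 (3.30%) and 24 (3.05%) of 787 genes. A ratio past 2-fold is a size and no test. List counts below that use all barcodes, or that pool the subclasses, have no count over all genes beside them. They are given as descriptions only.

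Pericyte genes as a group were close to their control level once the 9 barcodes were left out. With them, 17 of 23 were lower in the MNPQ library (median -0.28). Without them 13 of 21 were higher (median 0.08), beside a median of 0.09 over 1265 genes. Barcodes were set apart for holding fewer UMIs of the pericyte and contractile lists than of another list. Moves of the pericyte and contractile medians between the sets are thus partly fixed by that choice. Kcnj8 had 1352 CPM in control and 1530 CPM in MNPQ barcodes (log2 ratio 0.18, -0.23 to 0.59), Higd1b 3246 and 3192 CPM (-0.02, -0.30 to 0.25), and Abcc9 460 and 485 CPM (0.08, -0.66 to 0.81). Their intervals included 0. Vtn, by which the barcodes were chosen, had 22152 and 25421 CPM, and Rgs5, also in the rule, 9399 and 7694 CPM.

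The contractile genes of pericyte-like barcodes had a median log2 ratio of -0.71 (11 of 13 lower) with all barcodes and -0.19 (7 of 13 lower) without the 9. Crip1, which encodes a small LIM protein of smooth muscle, lay at -0.93 and -0.46 in these sets. The control library held 3 pericyte-like barcodes rich in contractile transcripts, with 24, 33 and 45 Acta2 plus Tagln UMIs, while no MNPQ pericyte-like barcode had more than 8. Without the 9 and these 3 barcodes, 8 of 12 contractile genes were higher in the MNPQ library (median 0.18), beside 646 of 1123 genes (0.12). The 3 barcodes were picked by their Acta2 and Tagln UMIs, so a rise of the contractile ratios was likely from that choice. The cause of these ratios was not tested.

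Genes at the extremes had few UMIs per barcode, and their ranges overlapped between the libraries. Itgb1, the integrin beta 1 chain through which pericytes hold to laminin and other matrix proteins, had 89 UMIs in 30 control and 26 in 30 MNPQ pericyte-like barcodes. Single barcodes had 0 to 9 UMIs (median 2.5) in the control and 0 to 4 (median 0) in the MNPQ library. Its log2 ratio was -1.65 (-2.34 to -1.01), or -1.89 with the 9 barcodes and -1.60 without the 9 and the 3 contractile-rich control barcodes. In endothelial barcodes Itgb1 lay at -0.55 (-0.96 to -0.13). Gucy1a1, the alpha subunit of the nitric oxide receptor, had 46 and 14 UMIs, in 24 and 11 barcodes, with a log2 ratio of -1.59 (-2.57 to -0.71), or -2.13 with the 9. Its partner Gucy1b1 had 76 and 46 UMIs. Des had 31 and 12 UMIs (-1.25, -2.34 to -0.25), and 21 of the control UMIs were outside the 3 contractile-rich barcodes.

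The low end also held Pdia6, a disulfide isomerase of the endoplasmic reticulum (26 and 8 UMIs, -1.58), Cbx5 (25 and 9 UMIs, -1.35), which encodes a heterochromatin protein, and Gm42418. Gm42418, an RNA gene on chromosome 17 (39846958 to 39848788, plus strand) that overlaps AY036118 on the other strand, had 145 and 22 UMIs (-2.60, -3.32 to -1.95). It was also lower outside the mural barcodes, at -1.99 in endothelial and -2.72 in the other kept barcodes.

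At the high end stood Dbp (ENSMUSG00000059824, chromosome 7, 45705088 to 45710203, plus strand), a transcription factor of the circadian clock output. It had 19 UMIs in control and 56 in MNPQ barcodes, in 11 and 17 of 30 pericyte-like barcodes, at 0 to 4 and 0 to 10 UMIs a barcode. Its log2 ratio was 1.68 (0.91 to 2.51), or 1.22 with the 9 barcodes. It was higher in endothelial barcodes as well (1.47, 0.70 to 2.30) and in the other kept barcodes (0.69, 0.47 to 0.92). Jund, which encodes an AP-1 protein, had 17 and 39 UMIs (1.32, 0.46 to 2.23) and Eif4a1, a translation initiation helicase, 18 and 41 UMIs (1.31, 0.48 to 2.20). In endothelial barcodes Jund lay at 0.10 (-0.39 to 0.61) and Eif4a1 at 0.28 (-0.12 to 0.69). Ssr4 (9 and 22 UMIs, 1.41) and Mpc2, a subunit of the mitochondrial pyruvate carrier (10 and 24 UMIs, 1.38), lay between Dbp and Jund.

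In smooth muscle-like barcodes 46 of 819 genes (5.62%) were past 2-fold higher in the MNPQ library and 22 (2.69%) past 2-fold lower. Without the 1 ependymal-led barcode of this subclass these were 36 (4.69%) and 19 (2.48%) of 767 genes, from 10 control and 17 MNPQ barcodes. The most extreme was Hes1 (ENSMUSG00000022528, chromosome 16, 30064384 to 30067796, plus strand), a transcriptional repressor induced by Notch receptors. It had 1 UMI in the 10 control barcodes (1 barcode) and 31 UMIs in the 17 MNPQ barcodes, where 13 had between 1 and 7 and 4 had 0. The log2 ratio was 3.78 with a wide counting interval of 1.20 to 9.13. Pericyte-like barcodes had Hes1 in both libraries, 25 and 38 UMIs, in 13 and 14 of 30 barcodes. Notch3 had 13 and 59 UMIs in smooth muscle-like barcodes (1.01, 0.13 to 2.00). The 15 measured genes of Notch, platelet-derived growth factor and transforming growth factor signalling had a median of 0.17, with 10 higher.

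Hspa1a, the inducible heat shock protein 70, had 3 UMIs in 2 of 10 control and 38 in 9 of 17 MNPQ smooth muscle-like barcodes (2.49, 0.83 to 4.83), at 0 to 2 and 0 to 9 UMIs a barcode. Endothelial barcodes had 8 and 24 Hspa1a UMIs (1.44, 0.24 to 2.81), and the other kept barcodes 123 and 79 (-0.53, -0.96 to -0.11). Ubxn1 had 3 and 35 UMIs (2.37, 0.70 to 4.72), Gas6, a ligand of TAM receptor kinases, 4 and 31 (1.78, 0.28 to 3.74) and Ppp1r12c, a targeting subunit of myosin phosphatase, 4 and 29 (1.68, 0.17 to 3.65). Cav1, the coat protein of caveolae, had 5 and 30 UMIs (1.41, 0.03 to 3.13). Each of these control sums is 5 UMIs or fewer, so the ratios are imprecise. Rps10, a ribosomal protein gene, rested on more, with 21 and 114 UMIs and 0 to 3 against 2 to 15 UMIs a barcode (1.27, 0.59 to 2.01). MNPQ barcodes of this subclass were also deeper, and per 10000 UMIs Rps10 stood at 0 to 7.44 (median 4.46) against a median of 10.2 and a highest value of 24.9, and these ranges overlapped. Ribosomal protein genes have processed copies in the genome, so reads may have been lost or shared between copies.

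Lower in the MNPQ smooth muscle-like barcodes were Map3k20, a stress-activated kinase, with 42 and 36 UMIs (-1.40, -2.08 to -0.72), Idh3b, a subunit of mitochondrial isocitrate dehydrogenase (17 and 15 UMIs, -1.35), and Klf9, a transcription factor (17 and 17 UMIs, -1.17). Map3k20 had a median of 3.5 UMIs (0 to 9) in control and 2 (0 to 6) in MNPQ barcodes. Pcp4l1, with more UMIs, 69 and 77, lay at -1.02 (-1.50 to -0.53).

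Contractile genes of smooth muscle-like barcodes were slightly lower in the MNPQ library, 19 of 24 with a median of -0.23, beside a median of 0.04 over 1174 genes. With all barcodes they were 21 of 24, with a median of -0.36. In single barcodes without the ependymal-led one, the contractile list held 3.05% to 8.09% of UMIs in the control library (median 5.94%). In the MNPQ library it held 3.22% to 7.05% (median 5.22%), so the ranges overlapped. Acta2, by which these barcodes were chosen, had 19183 and 19290 CPM without the ependymal-led barcode. Crip1 had 15841 and 13059 CPM (-0.28, -0.41 to -0.15), Myh11 2886 and 2443 CPM (-0.24, -0.55 to 0.07), Tpm1 3689 and 2760 CPM (-0.42, -0.70 to -0.14) and Cald1 3494 and 2346 CPM (-0.57, -0.87 to -0.28). Flna, the actin crosslinker filamin A, was at the other end (0.50, -0.05 to 1.08), and Atp2a2 was higher at 0.95 (0.09 to 1.90).

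**Figure D2:**
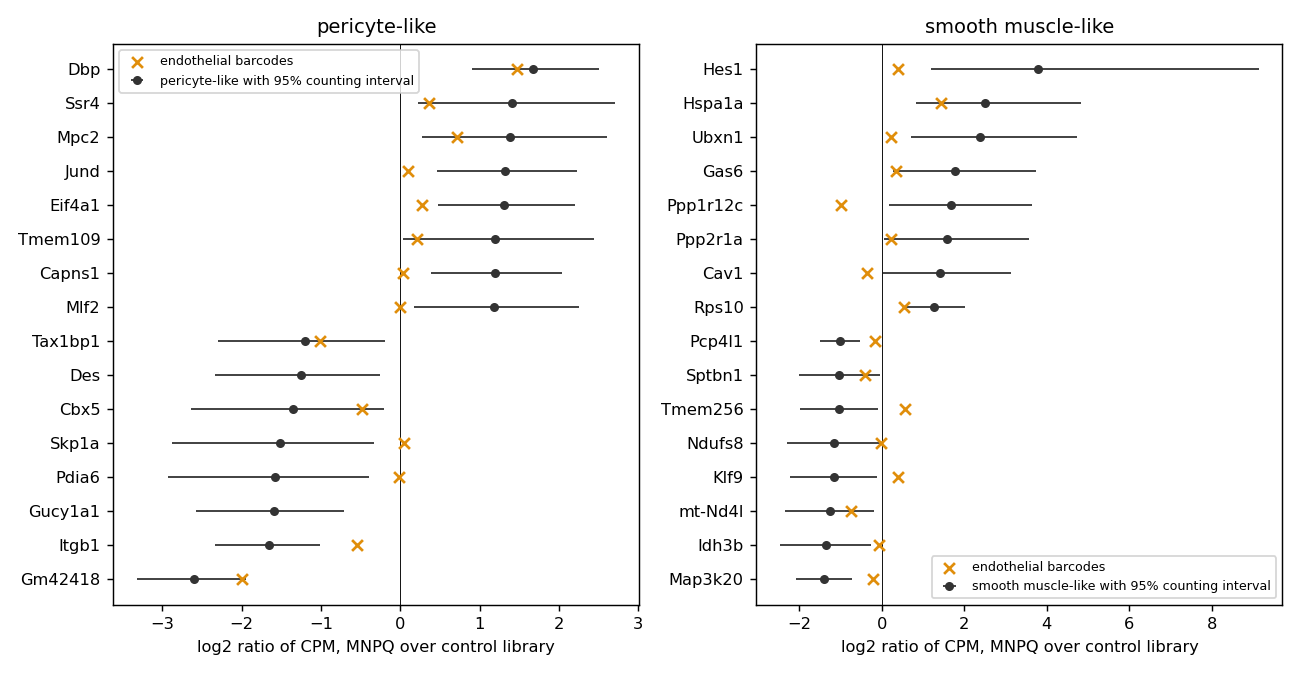
Log2 ratios of CPM, MNPQ over control (x axis), with 95% counting intervals, for the 8 highest and 8 lowest genes of pericyte-like (left) and smooth muscle-like (right) barcodes among the 87, with endothelial barcodes as crosses where they had UMIs in both libraries. Gm42418 and Dbp lie near their endothelial values of -1.99 and 1.47, and Hes1, with 1 control UMI, has the widest interval, 1.20 to 9.13.

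Several lists of general cell function were examined in both subclasses, without the 9 barcodes. Over all genes 710 of 1265 were higher in the MNPQ library in pericyte-like barcodes (median 0.09) and 626 of 1174 in smooth muscle-like ones (0.04). Cytosolic ribosomal protein genes were higher in the MNPQ library in both, 64 of 77 in pericyte-like barcodes (median 0.26) and 60 of 76 in smooth muscle-like ones (0.28). Mitochondrially encoded genes were higher in pericyte-like barcodes, 10 of 11 (0.31), with mt-Co1 at 0.64 (0.40 to 0.89), and 8 of 11 were higher in smooth muscle-like ones (0.06). Of the 30 pericyte-like barcodes in each library, 4 control and 8 MNPQ barcodes had both fewer than 1000 UMIs and over 7% mitochondrially encoded UMIs, and the medians of that percentage were 3.36% and 4.26%. The part of these shallow barcodes in the result was not tested. Nuclear genes of respiratory complex I, which takes electrons from NADH, had medians of 0.01 (17 of 33 higher) and -0.03 (16 of 36 higher). Glycolysis genes had medians of 0.46 (7 of 9 higher) and 0.28 (6 of 8 higher), with Pkm in pericyte-like barcodes at 0.70 (0.18 to 1.23). Proteasome subunits had medians of -0.08 (4 of 17 higher) and -0.12 (10 of 20 higher).

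Antioxidant and metallothionein genes differed between the sets with and without the 9 barcodes. With all barcodes, 14 of 17 antioxidant genes were higher in the MNPQ pericyte-like barcodes (median 0.55), with no count over all genes given for that set. Without the 9 barcodes 8 of 12 were (0.35), beside 710 of 1265 genes. Sod3, the extracellular superoxide dismutase, had 44 and 77 UMIs without them (0.93, with a lower limit of 0.38). Prdx6, a peroxiredoxin, had 18 and 66 UMIs with them (1.46, 0.69 to 2.30) but 18 and 12 without (-0.46, -1.65 to 0.67). Mt1 had 47 and 148 UMIs in all pericyte-like barcodes (1.24, 0.76 to 1.75), and 42 and 36 without the 9 (-0.10, -0.78 to 0.58). Mt3 in smooth muscle-like barcodes had 2 and 107 UMIs with the ependymal-led barcode, and 2 and 2 without it. For Prdx6, Mt1 and Mt3, unlike Sod3, the MNPQ excess was in the barcodes led by another list.

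**Figure D3:**
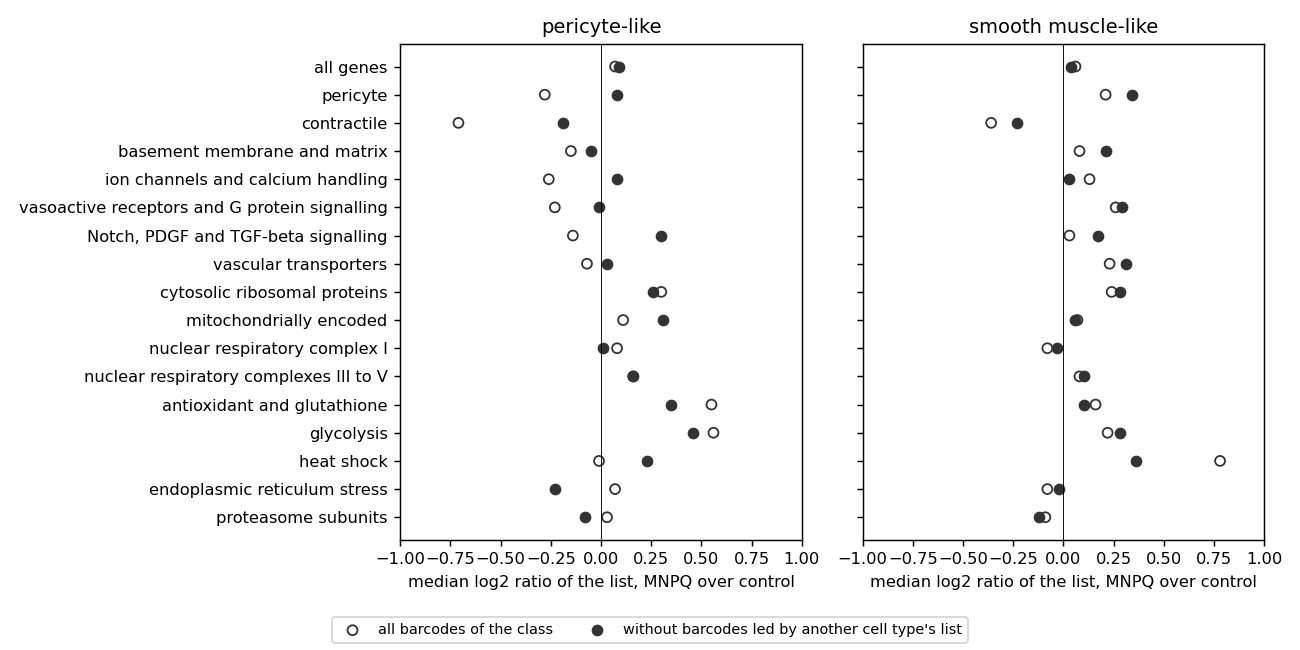
Median log2 ratio of MNPQ over control (x axis) for each gene list in pericyte-like (left) and smooth muscle-like (right) barcodes, for all barcodes of the subclass (open) and without those led by another cell type's list (filled). The contractile list of pericyte-like barcodes shifts from -0.71 to -0.19 and the antioxidant list from 0.55 to 0.35, while ribosomal protein genes stay near 0.3 in both. The contractile shift is partly fixed by how those barcodes were set apart.

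Over all mural barcodes 97 of 1991 genes (4.87%) were past 2-fold higher in the MNPQ library and 52 (2.61%) past 2-fold lower, and 47 (2.83%) and 41 (2.47%) of 1663 without the 9 barcodes. This comparison mixes the subclasses, of which the MNPQ library held more smooth muscle-like UMIs. Without the 9 barcodes 18 of 24 contractile genes were higher in it and 18 of 23 pericyte genes lower. Genes at the top that are markers of neither subclass were Pcbp1, an RNA-binding protein gene (4 and 31 UMIs, 2.44), Hspa1a (8 and 46 UMIs, 2.00) and Brk1, a subunit of the WAVE actin-regulatory complex (8 and 39 UMIs, 1.77). Cmbl, the highest gene with all barcodes (4 and 52 UMIs, 2.89), had 3 and 8 UMIs without the 9.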

How the data were processed

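Single cells were captured on the 10x Chromium platform, 1 library a group. The deposited matrices hold counts of UMIs for 31053 genes and 2070 barcodes, made by the authors with Cell Ranger 3.0.2, per the file headers, on mm10, per the submitters' processing notes. How barcodes were called cells is not given in the sources used here. The 35 symbols on more than 1 row were left out of the marker and list sums. Barcodes were kept that passed a floor of 200 genes and a ceiling of 20% mitochondrially encoded UMIs (2002640 and 1958634 UMIs).

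Per library, the UMIs of a class's barcodes were summed and expressed as CPM. Log2 ratios carry exact conditional binomial 95% intervals, shares exact Clopper-Pearson intervals, and differences of shares Newcombe intervals. All cover counting error only, and no p-value was computed. Genes needed 30 UMIs over the barcodes compared, list genes 20. For mural over other barcodes the 30 UMIs were counted over the mural barcodes alone. A count of 0 was set to a floor of 3 counts over the group for bounds. The members, gene lists and comparisons were chosen with earlier results of these data known. Named genes were the 8 highest and 8 lowest ratios for treatment, leaving out genes with over 25% of a library's UMIs in 1 barcode, 12 genes at each end for the subclasses and 20 for mural over other barcodes (by the smaller ratio of both libraries), and genes of the lists. The ratio script was tested on simulated counts. Gene positions are those of GENCODE M21 on mm10, where 30934 gene identifiers were found, and promoter sequences are RefSeq's on GRCm38.p6. Scrublet was run through scanpy 1.11.5, with Python 3.11.15, numpy 2.4.6, scipy 1.17.1, pandas 2.3.3 and matplotlib 3.10.9. Some genes of these lists and rankings are not reported here.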

Additional observations from a re-analysis of the deposited data

Results flagged for a closer look

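For 7 genes the MNPQ over control log2 ratios of pericyte-like and smooth muscle-like barcodes had counting intervals on opposite sides of 0 when all barcodes were used. Without the barcodes led by another cell type's list, only Actb of these 7 genes kept intervals on opposite sides of 0. With 1 library a group, the difference between the subclasses was not tested. Actb (cytoplasmic actin) lay at 0.37 in pericyte-like and -0.73 in smooth muscle-like barcodes, or 0.31 (0.10 to 0.53) and -0.61 (-0.76 to -0.46) without those barcodes.

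For the other 6 genes at least 1 interval included 0 without them. Pdgfrb lay at -0.70 and 1.13, or -0.29 (-0.71 to 0.12) and 1.26 (0.27 to 2.40) without them. Rgs4 lay at -0.70 and 0.52, or -0.23 (-0.71 to 0.24) and 0.65 (0.15 to 1.17). Tm4sf1, a tetraspanin-like membrane protein gene, lay at -0.71 and 0.80, or -0.45 (-0.97 to 0.06) and 0.58 (-0.18 to 1.40). Skp1a, a ubiquitin ligase subunit, lay at -0.97 and 1.55, or -1.52 (-2.88 to -0.33) and 1.35 (-0.20 to 3.34). Tmsb10, an actin-sequestering thymosin gene, lay at 0.93 and -0.93, or 0.80 (0.24 to 1.37) and -0.85 (-1.76 to 0.07). Igfbp7, a secreted protein of vessel walls, lay at -0.33 and 0.41, or 0.15 (-0.04 to 0.35) and 0.54 (0.30 to 0.77), so its pericyte-like ratio changed sign.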

How the results depend on the processing

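No paired analysis was possible because each group is 1 library and the labels carry no replicate numbers. The share of mural barcodes kept a difference between 0.968 and 2.59 percentage points, and the smooth muscle-like share of mural barcodes one between 7.69 and 13.0, under all alternatives run. Counts of genes past 2-fold depended on the minimum and on depth. With at least 60 UMIs a gene, the pericyte-like count was 37 in place of 114, the smooth muscle-like 14 in place of 68, the mural 35 in place of 149, the subclass comparison 164 in place of 324 and mural over other barcodes (4-fold) 161 in place of 302. The main counts are out of 1000, 819, 1991, 1988 and 1985 genes in this order. The higher minimum leaves fewer genes to compare, so these drops in number are not drops in share. Thinned to 1000 UMIs a barcode, treatment counts were 15, 7 and 28, with fewer genes tested. Without barcodes led by another list, chosen after seeing the data, they were 50 for pericyte-like and 88 for mural barcodes, and 44 for pericyte-like barcodes also without those of 10 or more Acta2 plus Tagln UMIs. With hemoglobin, mitochondrially encoded, Gm42418, AY036118 and Malat1 UMIs left out of the totals, the split of higher and lower genes was 55 and 53 in place of 69 and 45 (pericyte-like), and 82 and 69 in place of 97 and 52 (mural). Of 1059 alternative values of named genes, 954 stayed within the counting interval of the main value, which was wide for some genes. Another 97 moved outside it (68 of them thinned), and 8 changed sign where that interval excluded 0. Sign changes where it included 0 were not counted apart. Thinning turned Snx3 (-0.43) and Skp1a (-0.85) in smooth muscle-like barcodes, and for smooth muscle-like over pericyte-like barcodes Pth1r (0.21), Ppm1l (-0.15) and Parm1 (-0.15) in the control library; the cause was not tested. Leaving out the led barcodes turned Mt3 (-1.52) in mural barcodes. In the subclass comparison it left 3 Apod UMIs in the MNPQ library (0.39) and 4 Dcn UMIs in the control library, where 0.27 is an upper bound from the floor of 3, so these 2 values show no direction. With 10 control smooth muscle-like barcodes, the named ratios resting on 5 or fewer control UMIs have intervals wider than 2 log2 units.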
